A study of Homo sapiens with 6 samples.

Results

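The integrated stress response and the unfolded protein response were followed through 10 genes in RNA-seq libraries labelled as A549, a line derived from a human lung adenocarcinoma. The genes were chosen by identifier, and all 10 were found among the 54532 gene IDs of the deposited files. The series title names a knockdown of DSTY, and the titles of the 6 libraries put 2 each into groups called NC, sh1 and sh4. The labels give no hairpin sequence, vector, treatment, time or clone for any group and do not spell out the group names. NC is read here as the control group, and sh1 and sh4 as knockdown groups. Nothing in the labels says that the 2 libraries of a group came from separate cultures. P-values therefore rest on the spread between these libraries, estimated in part across all IDs tested, and that spread may be technical.

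The organism of the RNA is unresolved. The labels state human cells, and the submitters' processing notes name the human build hg18, but each of the 54532 IDs starts with the prefix that Ensembl uses for mouse. The gene names used below are Ensembl's mouse names of the chosen IDs, as supplied with the choice of genes. The files hold IDs only, and 0 of the mouse IDs stand in the human gene tables used here. Whether the targeted gene was lowered, the markers of A549 cells and of other cell types, and other genes of the pathways were therefore not analysed here. Reads recovered from the values came to between 14999786 and 18011798 per library.

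The integrated stress response begins when kinases that sense misfolded protein, amino acid shortage, viral RNA or haem shortage phosphorylate the translation factor eIF2-alpha. Most translation then slows, while the mRNA of the transcription factor ATF4 is translated more, so the ATF4 response is set largely at translation and not only by the amount of its mRNA. ATF4 drives genes for amino acid synthesis and transport, redox balance and, under lasting stress, cell death. The unfolded protein response of the endoplasmic reticulum shares this arm through the kinase PERK and has further arms through ATF6 and IRE1, which raise chaperones such as Hspa5.

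In both knockdown groups, the endoplasmic reticulum chaperone gene Hspa5 and the stress genes Ddit3, Atf3 and Trib3 were far lower than in NC, and the asparagine synthetase gene Asns was lower too. Atf4 itself was slightly lower. Phgdh and Sesn2 were higher in both groups, and Psat1 was lower in sh1 and higher in sh4. The genes of this response thus did not move together. All values are FPKM (fragments counted on a gene, divided by its length and by a depth factor of the library). Comparing levels between genes on this scale relies on the gene lengths used and on reads being assigned equally well to each gene. Neither could be checked, since the annotation was not given and the organism is unresolved.

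**Figure D1:**
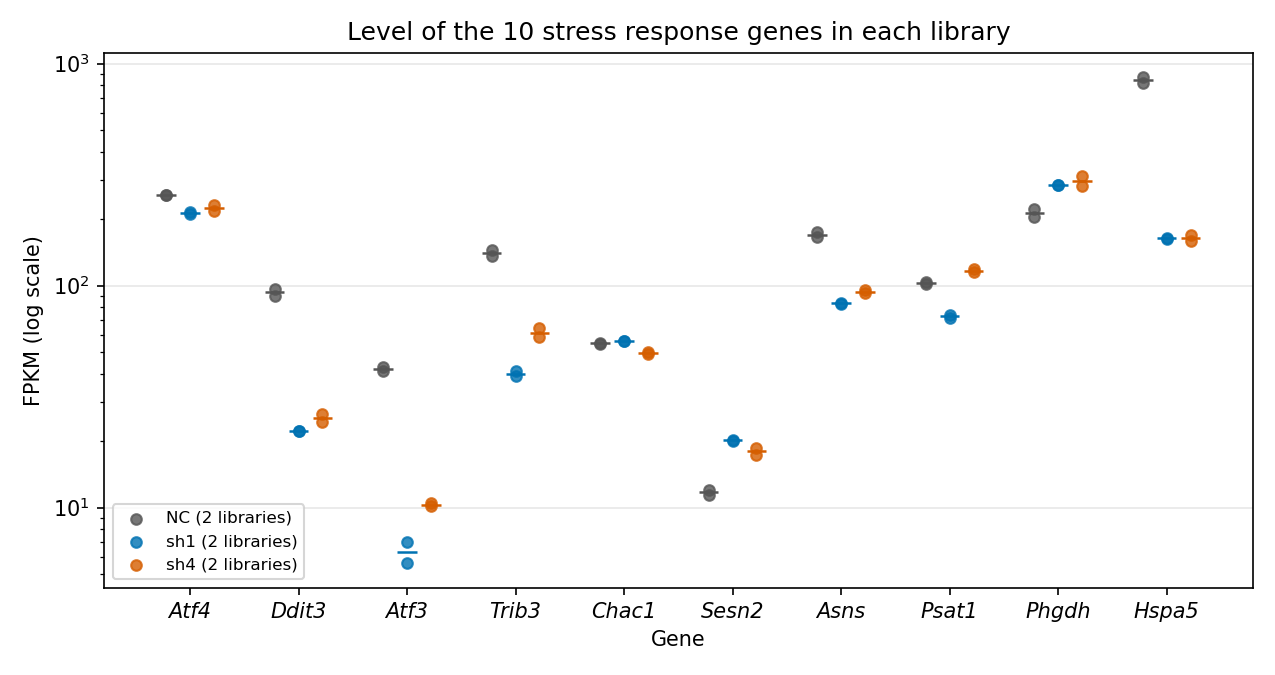
Level of each of the 10 genes in FPKM, on a log axis, with 1 point per library (2 each for NC, sh1 and sh4) and a short line at the group mean. Hspa5 lies at 821.1 FPKM or more in both NC libraries and at 168.9 or less in the other 4, while Chac1 lies between 49.0 and 56.2 FPKM in all 6.

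Among the transcription factors, Atf4 (ENSMUSG00000042406), the central activator of the response, stood at 254.9 and 255.3 FPKM in NC, 214.1 and 211.1 in sh1, and 229.6 and 217.0 in sh4. Both knockdown groups lay below NC, and they did not overlap with each other, although sh1 replicate 1 and sh4 replicate 2 were close. The change in log2(FPKM + 1), the scale of all changes below, was -0.26 (SE 0.04, adjusted p = 9.19e-05) in sh1 and -0.19 (SE 0.04, adjusted p = 0.00113) in sh4, by limma with Benjamini-Hochberg adjustment over all 12755 IDs tested. In linear terms the mean level fell by 16.7% in sh1, and in sh4 it fell by 12.5%.

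Ddit3 (ENSMUSG00000025408) encodes CHOP, a factor induced downstream of ATF4 and linked to cell death under lasting stress. Its level was 96.8 and 90.1 FPKM in NC, 22.05 and 22.23 in sh1, and 26.5 and 24.3 in sh4. All 4 knockdown libraries were far below both NC libraries. The mean was 4.22-fold lower in sh1 and 3.68-fold lower in sh4 than in NC, with log2 changes of -2.03 and -1.84 (SE 0.06 for both).

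Atf3 (ENSMUSG00000026628), a stress-induced transcription factor, stood at 42.8 and 41.1 FPKM in NC, 5.61 and 6.98 in sh1, and 10.5 and 10.1 in sh4. The 3 groups did not overlap, and sh1 was lowest. Atf3 rested on the fewest reads of the 10 genes, with 202 and 265 in sh1. The mean was 6.66-fold lower in sh1 and 4.07-fold lower in sh4, with log2 changes of -2.56 and -1.92 (SE 0.08 each). For Ddit3 and Atf3, limma's adjusted p was 4.7e-10 or smaller in both groups. Both NC libraries thus held each of these factors at several times the level seen in any knockdown library, while Atf4 differed far less.

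Among the feedback and effector genes, Trib3 (ENSMUSG00000032715), a pseudokinase gene induced by ATF4 and CHOP whose product restrains them, was at 144.0 and 135.4 FPKM in NC, 41.2 and 39.2 in sh1, and 64.1 and 58.8 in sh4. The groups did not overlap, and sh4 lay between sh1 and NC. The mean was 3.48-fold lower in sh1 and 2.27-fold lower in sh4 than in NC (log2 changes of -1.77 and -1.17, SE 0.05 for both, largest adjusted p in limma 8.48e-10).

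Chac1 (ENSMUSG00000027313), another target of the ATF4 and CHOP branch whose product breaks down glutathione, differed least from NC among the 10. It was at 54.4 and 55.4 FPKM in NC, 56.2 and 56.2 in sh1, and 50.1 and 49.0 in sh4. The difference between sh1 and NC was 0.04 on the log2 scale, with a 95% interval from -0.08 to 0.15, and was not past the threshold (adjusted p = 0.57, limma). It was -0.03 with total-read scaling and -0.04 with libraries rescaled to the same FPKM sum, which moved the median of all IDs by -0.05 and -0.06. Relative to that median, Chac1 stood at 0.04 as deposited and at 0.03 under either scaling. In sh4 the log2 change was -0.14 (SE 0.05, adjusted p = 0.0232, limma). That call was lost without NC replicate 1 (adjusted p = 0.0522), NC replicate 2 (adjusted p = 0.0994) or sh4 replicate 2 (adjusted p = 0.0726), and with libraries rescaled to the same FPKM sum (-0.10, adjusted p = 0.15). Relative to the median of all IDs, it was -0.15 as deposited and -0.14 under that scaling.

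Sesn2 (ENSMUSG00000028893), which encodes a stress-induced inhibitor of the growth kinase mTORC1, was the lowest of the 10 genes in NC, at 11.41 and 12.03 FPKM. It stood at 20.03 and 20.21 FPKM in sh1 and at 18.6 and 17.3 in sh4, so both knockdown groups lay above NC. The mean was 1.72-fold higher in sh1 and 1.53-fold higher in sh4 (log2 changes of 0.73 and 0.58, SE 0.06 for both, largest adjusted p in limma 2.24e-06). Among these 3 effector genes, Trib3 fell and Sesn2 rose in both groups, while Chac1 passed the threshold only in sh4.

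The genes for amino acid synthesis split as well. Asns (ENSMUSG00000029752), which makes asparagine from aspartate and is a standard reporter of ATF4 activity, was at 173.6 and 165.2 FPKM in NC, 83.0 and 83.2 in sh1, and 95.4 and 92.2 in sh4. Every knockdown library lay well below every NC library. The mean was 2.04-fold lower in sh1 and 1.81-fold lower in sh4 (log2 changes of -1.02 and -0.85, SE 0.04 for both, largest adjusted p in limma 2.12e-09).

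Phgdh (ENSMUSG00000053398) encodes the first enzyme of serine synthesis. Its level was 220.8 and 204.1 FPKM in NC, 283.7 and 284.3 in sh1, and 310.2 and 280.0 in sh4. All knockdown libraries were above NC, and sh1 lay within the range of sh4. The mean was 33.7% higher in sh1 and 38.9% higher in sh4 (log2 changes of 0.42 and 0.47, SE 0.05 for both, largest adjusted p in limma 1.07e-05).

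Psat1 (ENSMUSG00000024640), which encodes the next enzyme of the same pathway, was at 103.3 and 102.0 FPKM in NC, 73.9 and 71.3 in sh1, and 118.6 and 114.9 in sh4. It was the gene of the 10 that passed the threshold in opposite directions. The log2 change was -0.49 in sh1 (SE 0.04, adjusted p = 2.17e-07) and 0.18 in sh4 (SE 0.04, adjusted p = 0.00149, limma). The mean fell by 29.3% in sh1 and was 13.7% higher in sh4 than in NC. Neighbouring steps of serine synthesis, Phgdh and Psat1, were therefore both higher in sh4, whereas in sh1 the first was higher and the next lower.

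Hspa5 (ENSMUSG00000026864) encodes BiP, the main chaperone of the endoplasmic reticulum lumen, which also holds the stress sensors inactive, and it is a target of ATF6. Its level was 867.5 and 821.1 FPKM in NC, 163.6 and 162.7 in sh1, and 168.9 and 158.9 in sh4. It was the most abundant of the 10 genes in NC, and both sh1 libraries lay within the range of sh4. The mean was 5.18-fold lower in sh1 and 5.15-fold lower in sh4 than in NC. The log2 changes were -2.36 in both (SE 0.04), with a largest adjusted p in limma of 2.52e-13. The values rest on 57925 and 53251 reads in NC and on between 11556 and 13190 in the other libraries.

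These changes were set beside those of all IDs tested. In sh1 against NC, 2 of the 10 genes were called higher and 7 lower, where 65.5% of all tested IDs were called in either direction, 32.4% higher and 33.2% lower. All 10 genes averaged at least 5 FPKM over the libraries, and of the 7691 tested IDs that did so 74.2% were called. In sh4 against NC, 3 of the 10 were called higher and 7 lower, against 68.2% of all IDs in either direction, 35.0% higher and 33.2% lower. Of the IDs averaging at least 5 FPKM, 76.3% were called there. The libraries of sh1 and NC, and those of sh4 and NC, did not overlap for any of the 10 genes, which held for 82.3% and 82.7% of all IDs. A call as such was therefore common in these libraries. The size of the change separates the genes more. A fall of at least 1 log2 unit was called for 5 of the 10 genes in sh1 and 4 of 10 in sh4, against 4.29% and 4.20% of all IDs. That share was not taken among the IDs averaging at least 5 FPKM. The genes were chosen with earlier results of these data known, so this contrast is a description and not a test.

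The median log2 change of the 10 genes was -0.76 in sh1 and -0.52 in sh4, beside -0.01 and 0.01 over all IDs tested. Of the 12755 IDs, 34 had a more negative change than Hspa5 in sh1 and 20 in sh4. For Atf3 these numbers were 22 and 64, for Ddit3 59 and 80, and for Trib3 101 and 376. The 3 genes called higher in at least 1 group, Sesn2, Phgdh and Psat1, lay inside the 5th to 95th percentile of all changes (-0.97 to 1.08 in sh1 and -0.97 to 1.09 in sh4). Both comparisons use the same 2 NC libraries, so their values are not independent of each other.

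**Figure D2:**
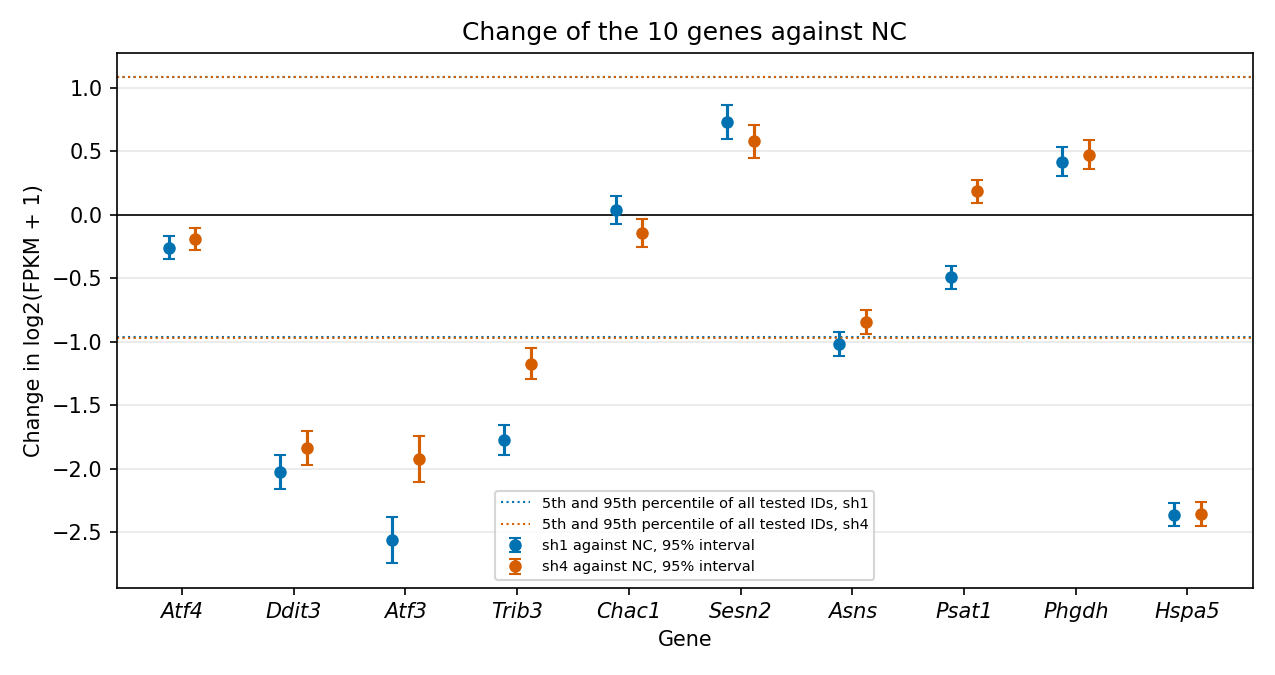
Change in log2(FPKM + 1) of each gene in sh1 and sh4 against NC, with its 95% interval from limma, and dotted lines at the 5th and 95th percentile of all 12755 IDs tested. Hspa5 lies at -2.36 in both groups, Psat1 on opposite sides of 0, and Sesn2 and Phgdh above 0 in both.

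The order of the levels changed along with them. In NC it ran Hspa5, Atf4, Phgdh, Asns, Trib3, Psat1, Ddit3, Chac1, Atf3 and Sesn2. In sh1 it ran Phgdh, Atf4, Hspa5, Asns, Psat1, Chac1, Trib3, Ddit3, Sesn2 and Atf3. In sh4 the order was that of sh1 with 2 swaps, since Psat1 stood above Asns and Trib3 above Chac1. No neighbours in these orders overlapped between their libraries, in any of the 3 groups. Asns and Psat1 had mean levels of 83.1 and 72.6 FPKM in sh1 and of 93.8 and 116.8 in sh4.

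The summed level of the 10 genes was 1969 and 1882 FPKM in NC, 963.4 and 957.4 in sh1, and 1093 and 1023 in sh4. Hspa5 made up 44.0% and 43.6% of that sum in NC, 17.0% in each sh1 library, and 15.5% in each sh4 library. Phgdh made up 11.2% and 10.8% in NC, 29.5% and 29.7% in sh1, and 28.4% and 27.4% in sh4. The share of Asns lay between 8.62% and 9.02% in all 6 libraries, so Asns fell about as much as the sum of the 10 did.

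Ratios within a library do not depend on how libraries are scaled to each other, and they are given as a description with no test. The ratio of Ddit3 to Atf4 was 0.380 and 0.353 in NC, 0.103 and 0.105 in sh1, and 0.115 and 0.112 in sh4. That of Hspa5 to Atf4 was 3.40 and 3.22 in NC, 0.764 and 0.771 in sh1, and 0.735 and 0.732 in sh4. Hspa5 thus stood above Atf4 in both NC libraries and below it in the 4 others.

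The ratio of Asns to Atf4 went from 0.681 and 0.647 in NC to 0.388 and 0.394 in sh1 and 0.415 and 0.425 in sh4. The ratio of Phgdh to Atf4 went the other way, from 0.866 and 0.799 in NC to 1.33 and 1.35 in sh1 and 1.35 and 1.29 in sh4. Asns and Phgdh, both amino acid synthesis genes, thus parted relative to Atf4 in each knockdown library. The ratio of Asns to Psat1 was 1.68 and 1.62 in NC, 1.12 and 1.17 in sh1, and 0.804 and 0.803 in sh4, with no overlap between the groups.

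The ratios of Trib3 to Ddit3, Chac1 to Trib3 and Sesn2 to Atf4 differed between the groups as well. Trib3 stood at 1.488 and 1.503 times the level of Ddit3 in NC, at 1.87 and 1.76 times in sh1, and at 2.42 and 2.42 times in sh4. Chac1 stood at 0.378 and 0.409 times the level of Trib3 in NC, at 1.37 and 1.44 times in sh1, and at 0.782 and 0.833 times in sh4. Chac1 was thus below Trib3 in NC and sh4 and above it in sh1. Sesn2 relative to Atf4 was 0.0448 and 0.0471 in NC, 0.0936 and 0.0957 in sh1, and 0.0812 and 0.0799 in sh4.

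**Figure D3:**
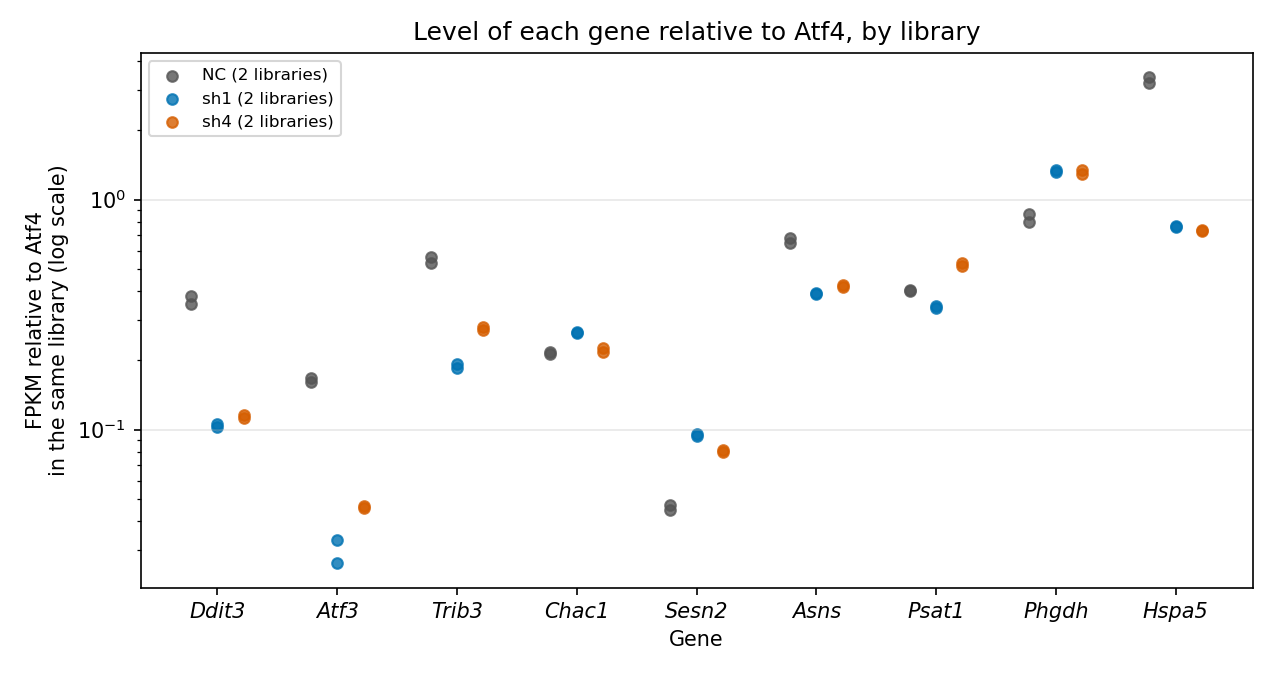
FPKM of each of the 9 other genes divided by that of Atf4 in the same library, on a log axis, with 1 point per library. Hspa5 falls from above 3.2 in NC to below 0.78 in the knockdown libraries, and Phgdh rises from below 0.87 to above 1.2.

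The knockdown groups were also tested against each other. In sh4, 5 of the 10 genes were higher and 2 lower than in sh1. Of all tested IDs, 56.0% were called in either direction, 29.5% higher and 26.4% lower. Of the IDs averaging at least 5 FPKM, 64.4% were called between sh4 and sh1. The median absolute difference was 0.18 over the 10 genes and 0.27 over all IDs. None of the 10 differed by 1 log2 unit or more, which was called for 6.34% of all IDs. The libraries of sh4 and sh1 did not overlap for 8 of the 10, and for 78.0% of all IDs. Without sh1 replicate 1 or without sh1 replicate 2, fewer of the 10 genes were called, and fewer of all IDs as well.

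The widest differences belonged to Psat1, Atf3 and Trib3. Psat1 was 1.61-fold higher in sh4 than in sh1 (log2 difference 0.68, SE 0.04, adjusted p = 1.69e-08). Atf3 was 1.64-fold higher (0.64, SE 0.08, adjusted p = 2.59e-05), and Trib3 was 1.53-fold higher (0.60, SE 0.05, adjusted p = 8.27e-07, limma). These 3 genes kept the call in all 15 alternative settings. Atf3 and Trib3 were lower than NC in both groups, and less so in sh4.

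Asns was 0.17 log2 units higher in sh4 (SE 0.04, adjusted p = 0.00429, limma) and kept the call in all 15 settings as well. For Ddit3 (0.19, SE 0.06, adjusted p = 0.0178), Chac1 (-0.18, SE 0.05, adjusted p = 0.00902) and Sesn2 (-0.15, SE 0.06, adjusted p = 0.0473) the limma call depended on the settings. Without sh1 replicate 1 the adjusted p was 0.0855 for Ddit3, 0.0564 for Chac1 and 0.139 for Sesn2, and without sh1 replicate 2 it was 0.0704, 0.0575 and 0.172. The call for Ddit3 was also lost without sh4 replicate 1 (0.13, adjusted p = 0.124) and that for Sesn2 without sh4 replicate 2 (-0.11, adjusted p = 0.226). Both calls were lost with no filter on low values (adjusted p = 0.0912 for Ddit3 and 0.0998 for Sesn2) and with no variance trend (0.0666 and 0.0824). Ddit3 was also lost by voom on the recovered reads (adjusted p = 0.0526) and Sesn2 with a pseudocount of 0.1 (adjusted p = 0.0558). The other scalings, which shift all IDs together, lost the calls of Chac1 and Sesn2.

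Atf4, Phgdh and Hspa5 were not past the threshold between sh4 and sh1, which does not show that their levels were equal. For Hspa5 the difference was 0.0059 on the log2 scale, with a 95% interval from -0.09 to 0.10. For Phgdh it was 0.05, with an interval from -0.06 to 0.17, and for Atf4 0.07, with an interval from -0.02 to 0.16. The adjusted p was 0.92, 0.42 and 0.17 in that order. Rescaling libraries to the same FPKM sum moved the median of all IDs by 0.10 in this comparison and brought the 3 genes past the threshold. Relative to the median of all IDs under that scaling, the differences were 0.02 for Hspa5, 0.07 for Phgdh and 0.09 for Atf4. Without sh4 replicate 2, Atf4 also passed the threshold (0.11, adjusted p = 0.0361, limma).

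**Figure D4:**
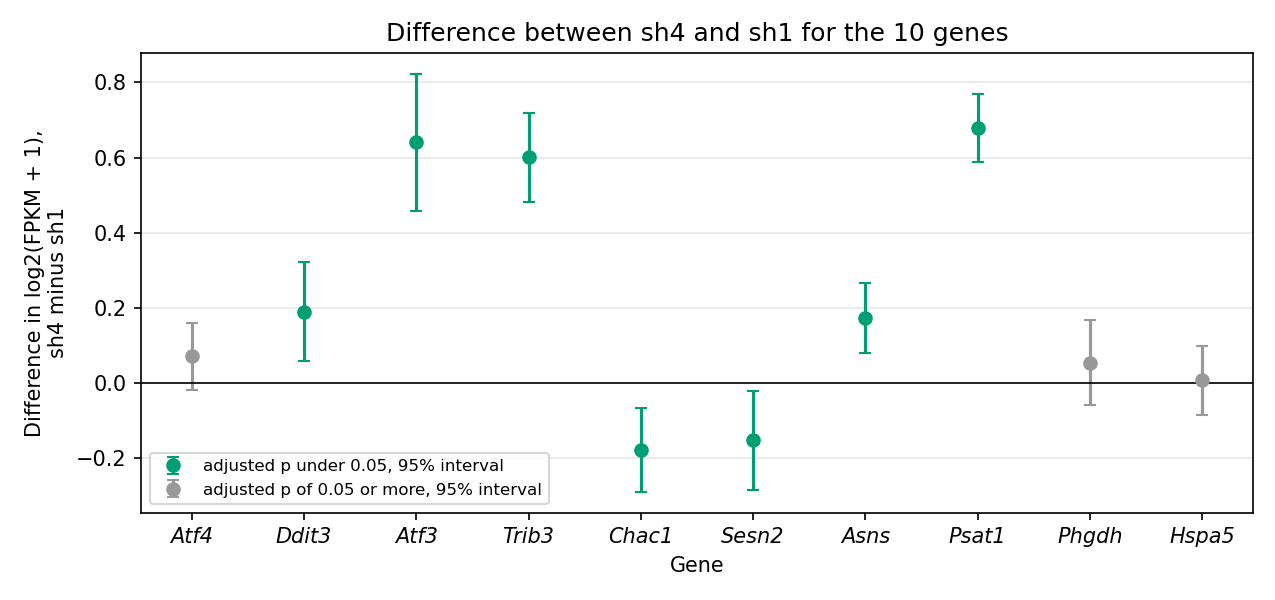
Difference in log2(FPKM + 1) between sh4 and sh1 for each gene, with its 95% interval, in green where limma's adjusted p was under 0.05 and in grey otherwise. Psat1, Atf3 and Trib3 lie at 0.60 or more, and the interval of Hspa5 is centred on 0.0059.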

How the data were processed

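The authors deposited one table of FPKM values per library, per the file headers. HISAT2 2.0.5 and the build hg18 are named in the submitters' processing notes. The read counter, the annotation and any filter were not given in the sources used here. Steps between low FPKM values gave back whole reads and gene lengths. From these the values of all 25747 IDs above 0 could be rebuilt (tolerance 1e-06 FPKM plus 1e-07 of the value). For each ID the smallest length that gave whole reads in every library was taken, so the rebuilding was built in. It cannot show that the true reads were found, and the reads of an ID and the library totals may be too low. The libraries' denominators matched size factors of the median-of-ratios kind, so a between-library scaling is already in the deposited values.

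The design expected per-library FPKM files. One limma fit (limma 3.58.1, R 4.3.3) on log2(FPKM + 1) covered all 6 libraries and left 3 residual degrees of freedom. Tested were the 12755 IDs, all 10 genes among them, that reached 1 FPKM in 2 or more libraries. The variance was robust with its trend on mean recovered reads, so it was drawn in part from other IDs. P-values were adjusted by Benjamini-Hochberg over all tested IDs (threshold 0.05). With no trend and no robust estimate, limma's adjusted p for Hspa5 in sh1 against NC was 2.59e-05, where the main fit gave 7.13e-14. Recovery and fit were tested on simulated data. The genes and lists were chosen with earlier results of these data known. The text names the 10 genes and no other ID, since the rule for further genes, the lists of other pathway genes and the cell type markers needed symbols and were not analysed here. No sequence is printed, since the sequence tables used here are human. Alternatives were another pseudocount, filter, scaling or variance model, voom on the recovered reads, fewer libraries and the replicate block. The labels name no batch. Counting noise alone would give a chi-square per ID near 1 between replicates, and it was 2.63 to 4.95.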

Additional observations from a re-analysis of the deposited data

Results flagged for a closer look

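Limma's test of sh4 against sh1 called 56.0% of all IDs and 64.4% of those averaging at least 5 FPKM. By that test, sh4 and sh1 differed in their change against NC for 7 of the 10 genes. With sh1 replicate 1 or sh1 replicate 2 left out, the calls of Ddit3, Chac1 and Sesn2 were lost, and fewer of all IDs were called as well. On the log2 scale sh4 lay above sh1 by 0.68 for Psat1, 0.64 for Atf3, 0.60 for Trib3, 0.19 for Ddit3 and 0.17 for Asns. The difference (sh4 minus sh1) was -0.18 for Chac1 and -0.15 for Sesn2. Of these, Psat1 was called lower than NC in sh1 and higher in sh4. The labels do not say how sh1 and sh4 differ, and any difference in handling between the groups cannot be told apart from one between the knockdowns.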

How the results depend on the processing

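Under 15 alternatives, each gene's direction and call were kept in 148 of 150 tests for sh1 against NC. The numbers were 146 of 150 for sh4 against NC and 123 of 150 for sh4 against sh1. Another filter, no variance trend, the replicate block or leaving out libraries of the group not compared gives the same log2 change. In those settings only the call could differ, not the direction. Chac1 in sh1 against NC was -0.025 under total-read scaling and -0.042 when libraries were rescaled to the same FPKM sum. These scalings moved the median of all IDs by -0.05 and -0.06, and relative to it Chac1 stayed positive (0.034 and 0.031). Between sh4 and sh1, leaving out 1 library gave -0.020 to 0.13 for Phgdh and -0.038 to 0.050 for Hspa5, both negative without sh4 replicate 1, and voom on the recovered reads gave -0.0057 for Hspa5. None of the reversed values was past the threshold. Without sh4 replicate 1, the sh4 level is that of replicate 2, at 280.0 FPKM for Phgdh and 158.9 for Hspa5. Both sh1 libraries lay above these levels (283.7 and 284.3 for Phgdh, 163.6 and 162.7 for Hspa5). The cause of the reversal of Hspa5 by voom was not tested. With 1 library left out, 9 genes were called for sh1, 9 to 10 for sh4, and 4 to 7 between sh4 and sh1. Such fits take the spread of a group with a single library from the other groups. Total-read scaling lost the calls of Chac1 (-0.10) and Sesn2 (-0.08) between sh4 and sh1 and brought Atf4 (0.15) and Phgdh (0.13) past the threshold. It moved the median of all IDs by 0.07 there, and relative to the median Chac1 was -0.17 (as deposited -0.18), Sesn2 -0.15 (-0.16), Atf4 0.08 (0.06) and Phgdh 0.06 (0.05). With the same FPKM sum, which moved the median by 0.10, Chac1 (-0.06) and Sesn2 (-0.04) were no longer past the threshold, and relative to the median they were -0.16 and -0.14.

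With the replicate block, 9 genes were called for sh1, 10 for sh4 and 7 between sh4 and sh1, and no call of a gene changed. Of the 12755 IDs tested, 8508, 8836 and 7345 were called in that order, so a call was common here too. The correlation of deviations between libraries of the same number was -0.01 (NC with sh1), 0.12 (NC with sh4) and -0.02 (sh1 with sh4). These values were not tested and cannot show whether libraries of the same number were handled together.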
